A study of Homo sapiens with 8 samples.

Results

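The RNA bound to Argonaute 2 (Ago2) was compared between ST486 cells that overexpress miR-155 (miR-155-ST486) and ST486 cells that carry the empty vector (EV-ST486). The members are the 4 Ago2-immunoprecipitation (IP) channels of the 8 channels of the series, which were selected by their labels as the IP of either vector in Cy3 or in Cy5. ST486 is a human cell line from Burkitt lymphoma, a tumour of germinal centre B cells. Both groups of cells were transduced with the retroviral MXW-PGK-IRES-GFP vector and sorted for GFP, and the groups differ in that the miR-155 construct also carries the miR-155 precursor with its flanks. The sorted cells are a pool and not a clone, they come from 1 cell line, and miR-155 is driven by the vector and not by its own promoter.

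About 100 ng of each IP RNA was labelled once with Cy3 and once with Cy5 and hybridized to whole genome arrays, in which the other channel held total (T) RNA of the same cells. Each vector therefore has n = 1 RNA sample, and the 2 labellings are technical repeats whose spread covers labelling and hybridization only. The EV and the miR-155 arrays were on separate slides (2 slides, 0 with both vectors), so slide and vector cannot be told apart in any value that follows, and no test between the vectors could be made. For every probe the log2 IP signal of EV-ST486 was subtracted from that of miR-155-ST486 within each dye, and the 2 differences were averaged. This IP difference was not divided by total RNA, whose difference is given beside it.

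Ago2 is the protein of the RNA-induced silencing complex that holds a miRNA against its target transcripts. A miRNA finds most targets by pairing of its seed, the bases near its 5′ end, with the 3′UTR, and transcripts held in this way are recovered when Ago2 is pulled down. miR-155 is processed from the transcript of its host gene MIR155HG, regulates B-cell activation and the germinal centre reaction, and is known as an oncogenic miRNA in B-cell lymphoma, with low levels in Burkitt lymphoma. The mature sequences are shown because the seed decides which transcripts can be held by the miRNA that was added to these cells. They were taken from RefSeq (GRCh38.p14), with bases 2 to 8, the seed, in capitals. The first lies at chr21:25573983-25574006 and the second at chr21:25574022-25574043, both on the plus strand.
hsa-miR-155-5p: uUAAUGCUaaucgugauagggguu
hsa-miR-155-3p: cUCCUACAuauuagcauuaaca
The seed of miR-155-5p is shared by 0 of the other mature miRNAs in the table, which holds 2370 names. The complement that a target carries is AGCATTA, or AGCATTAA with the A that often follows it. 3′UTR sequences were not used here, so sites in the genes below were not counted.

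Of the 41000 probes of the array, the deposited table holds 14453, with 10412 probes for 7930 genes with a symbol. Between 14083 and 20461 probes were well above background in an IP channel. Of 10 B-cell markers on the array, 8 were well above background in all 4 IP channels, among them CD79A and the coactivator POU2AF1, and PAX5 was in 0. Of 19 markers of other cells, 1 was (KRT8) and 14 were well above background in 0 IP channels. The summed signal of these 19 markers lay between 10.18 and 10.19 in the EV IP and between 10.21 and 10.33 in the miR-155 IP on the log2 scale, and their part in the results was not tested. The myeloid marker CD33, singled out after its values were seen, was at 6.49 and 6.82 in the EV IP and at 8.78 and 8.75 in the miR-155 IP. Other markers went the other way, such as HBA1 (6.99 and 7.43 in the EV IP, 5.80 and 5.38 in the miR-155 IP) and KRT8 (9.19 and 9.21, 8.28 and 8.74). The myeloid marker CD14 was at 6.53 and 4.71 in the EV IP and at 6.38 and 6.11 in the miR-155 IP. LYZ, MPO and CSF1R, also myeloid, were well above background in 0 channels. In the IP, CD33 was well above background in 3 of the 4 channels and HBA1 and CD14 in 2 each, so their values are uncertain.

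The Ago2-bound amount was at least 2-fold higher in miR-155-ST486 cells for 164 probes (1.13% of all) and at least 2-fold lower for 139 (0.962%). In each labelling on its own, 92 probes (0.637%) were at least 2-fold higher and 64 (0.443%) at least 2-fold lower. The counts were thus close in both directions at 2-fold, whereas the measured differences reached 3-fold for 18 higher and 6 lower probes and 4-fold for 7 higher and 0 lower probes. These counts include probes not well above background in either IP labelling of a vector, for which the measured difference is no firm level. Among probes well above background in at least 1 IP labelling of each vector, 154 were at least 2-fold higher and 137 lower, 15 and 5 at least 3-fold, and 5 and 0 at least 4-fold. The filter on dye differences and the 2-fold call together keep the labellings of the vectors from overlapping in every called probe, so that separation is no further evidence for any of them. Over all probes the IP difference had a median of 0.01 and an SD of 0.39, and the middle 95% of the probes lay between -0.78 and 0.81 on the log2 scale. The labellings of a probe gave the difference with an SD of 0.28, pooled over probes, which the 2-fold limit of the authors' filter on dye differences keeps small. The split between the directions depends on the scaling. When each channel was centred on its median over all probes of the array instead of quantile-normalized, the median difference of the deposited probes shifted to 0.31, and 569 probes were higher and 30 lower (95.0% of the calls higher, against 54.1%). When each channel was centred on the deposited probes, which takes this shift out, 152 were higher and 208 lower. With the normexp background correction and an offset, 31 were higher and 14 lower. Over 29 probes past 2-fold of the genes named below, the median ratio to the main difference was then 0.25. It was 0.675 with high local backgrounds replaced. The shrinkage was not confined to dim probes: TTC7A, brighter in the IP than the median probe, went from 1.57 to 0.59 at its lowest setting.

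**Figure D1:**
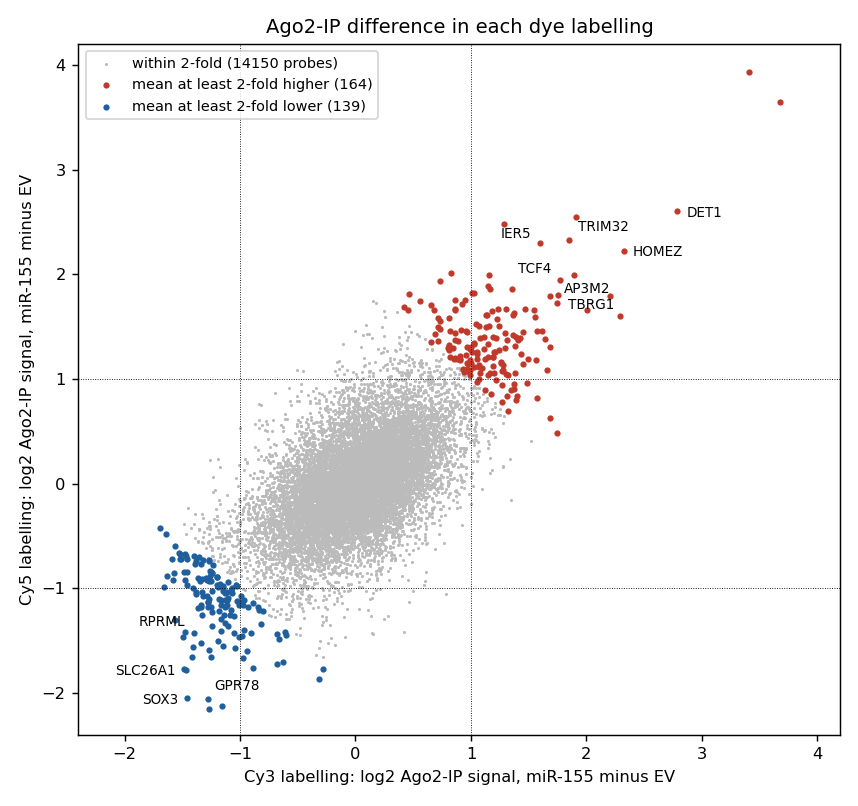
Each point is 1 of the 14453 probes, with its log2 Ago2-IP difference (miR-155 minus EV) in the Cy3 labelling on the x axis and in the Cy5 labelling on the y axis. Red and blue points are the 164 and 139 probes with a mean difference of at least 2-fold, dotted lines mark 2-fold in 1 labelling, and DET1 is the named gene farthest from the centre, at 2.79 and 2.60.

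The plot of the labellings against each other shows that the probes with a large difference in one dye mostly had one of the same sign in the other, with r = 0.59 across the 14453 probes, which share slides and normalization and are not replicates. At the 2-fold limit, FARSB lay just inside with 1.004, from 0.65 in Cy3 and 1.36 in Cy5, and HNRNPK just outside with 0.9995, from 0.90 in Cy3 and 1.1 in Cy5. On the lower side TSPAN10 lay just inside (-1.0002) and APOBEC3D just outside (-0.9998). Membership near the limit is thus decided by amounts far below the labelling spread. The called probes were dimmer than most. Of the 164 higher probes 100 (61.0%) were well above background in all 4 IP channels, and of the 139 lower ones 99 (71.2%), against 87.8% of all probes.

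Transcripts that were higher in the IP of miR-155-ST486 cells were led by 15 genes that were at least 2-fold higher in each labelling and well above background in all 4 IP channels, from 62 such probes of 42 genes. They encode parts of the ubiquitin system (DET1, TRIM32), transcription factors (HOMEZ, TCF4) and a growth regulator of the ARF pathway (TBRG1). Others encode membrane traffic proteins (SAR1A, AP3M2), a lymphocyte receptor (S1PR1) and an Fc receptor-like protein (FCRLA). The IP differences of the 15 genes ranged from 1.40 to 2.70 on the log2 scale. Of these and the 10 genes with the largest fall given below, DET1, IER5, SAR1A and SOX3 were at least 2-fold different under every normalization, background correction and filter tried and in each labelling alone. In total RNA 9 of the 15 were within 1.5-fold between the vectors, the measured signal of 4 was at least 1.5-fold higher and that of 2 at least 1.5-fold lower. One of the 4, S1PR1, was well above background in 0 total-RNA labellings. In total RNA and in IP RNA of bulk cells, fewer cells with a transcript and less of it per cell cannot be told apart.

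DET1, a subunit of the DET1-COP1 ubiquitin ligase, had log2 signals of 11.63 (Cy3) and 11.80 (Cy5) in the EV IP and of 14.42 and 14.41 in the miR-155 IP. Both miR-155 labellings were far above both EV labellings, a 6.48-fold higher signal (difference 2.70 ± 0.13, SD of the 2 labellings, n = 1 RNA per vector). Its total signal fell by 0.96 on the log2 scale, so DET1 was the named gene whose fractions moved farthest apart. HOMEZ, a homeobox protein with leucine zippers, was at 8.15 and 7.96 in the EV IP and at 10.47 and 10.18 in the miR-155 IP. The miR-155 IP was the higher in both dyes, 4.84-fold on average (2.28 ± 0.07), with 0.04 in total RNA, where 1 of the 2 EV labellings was well above background. TRIM32, an E3 ubiquitin ligase, was at 9.36 and 9.24 in the EV IP and at 11.21 and 11.56 in the miR-155 IP, which is 4.25-fold (2.09 ± 0.33) beside -0.09 in total RNA.

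IER5, a product of an immediate early gene, was at 12.46 and 11.66 in the EV IP and at 14.06 and 13.95 in the miR-155 IP. It was among the brightest of the 15 genes and was 3.86-fold higher (1.95 ± 0.49), with 0.32 in total RNA. The EV labellings of IER5 were 0.80 apart. TCF4, an E protein that regulates B-cell and dendritic cell genes, was at 9.28 and 9.12 in the EV IP and at 11.05 and 11.06 in the miR-155 IP (3.62-fold, 1.86 ± 0.12, total 0.23). AP3M2, a subunit of the AP-3 adaptor of vesicle traffic, was at 7.36 and 7.76 and at 9.36 and 9.42 (3.56-fold, 1.83 ± 0.24, total 0.45). SAR1A, the GTPase that starts COPII coats at the endoplasmic reticulum, was the brightest, at 13.98 and 13.89 in the EV IP and at 15.41 and 15.29 in the miR-155 IP. Its difference was 1.41 ± 0.02, while its total RNA differed by -0.20. The other SAR1A probe gave 1.12 ± 0.40 in the IP.

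TBRG1, the gene of NIAM, a nuclear interactor of ARF and MDM2, was at 8.10 and 8.15 in the EV IP and at 9.85 and 9.87 in the miR-155 IP on the probe with the larger difference. The signal was 3.33-fold higher (1.74 ± 0.02), and in total RNA it fell by 0.69. The brighter TBRG1 probe showed no such difference, with 9.85 and 9.87 in the EV IP and 9.73 and 9.82 in the miR-155 IP. According to the study, the brighter probe measures NIAM together with a non-coding TBRG1 transcript that lacks a miR-155 site. The dimmer probe measures NIAM alone, which carries such a site. USPL1, a SUMO protease, was 2.98-fold higher (1.58 ± 0.02, total 0.40), TTC7A, a scaffold protein of the phosphatidylinositol 4-kinase complex, 2.97-fold (1.57 ± 0.14, total 0.48), and CCDC126 2.64-fold (1.40 ± 0.24, total -0.48). The total difference of USPL1 was -0.24 in Cy3 and 1.03 in Cy5, with 1 of the 2 EV total labellings well above background.

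For TUBB3, FCRLA and DDX39B total RNA on the probe with the larger IP difference was at least 1.5-fold higher, in the same direction. TUBB3, the neuronal class of beta-tubulin, was at 11.65 and 12.13 in the EV IP and at 13.33 and 13.44 in the miR-155 IP (difference 1.5 ± 0.27), and its total RNA differed by more, 1.71. FCRLA, an Fc receptor-like protein of germinal centre B cells, was at 9.06 and 8.85 and at 10.43 and 10.48 (1.5 ± 0.18, total 1.19). S1PR1, the sphingosine-1-phosphate receptor that guides lymphocyte exit, was at 8.67 and 8.43 and at 10.21 and 10.09 (1.60 ± 0.08). Its total signal was not well above background in any of the 4 total-RNA labellings (means 4.03 and 4.98), so no difference in total RNA is given. DDX39B, an RNA helicase of mRNA export, differed by 1.49 ± 0.26 in the IP and by 0.83 in total RNA. FCRLA was well above background in 1 of the 2 EV total labellings. On these probes TUBB3, FCRLA and DDX39B thus had higher signals in both fractions, and DET1 and TBRG1 a lower one in total RNA. The brighter second probes of TUBB3, DDX39B and TBRG1 were within 1.5-fold in total RNA (0.26, 0.41 and -0.13).

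**Figure D2:**
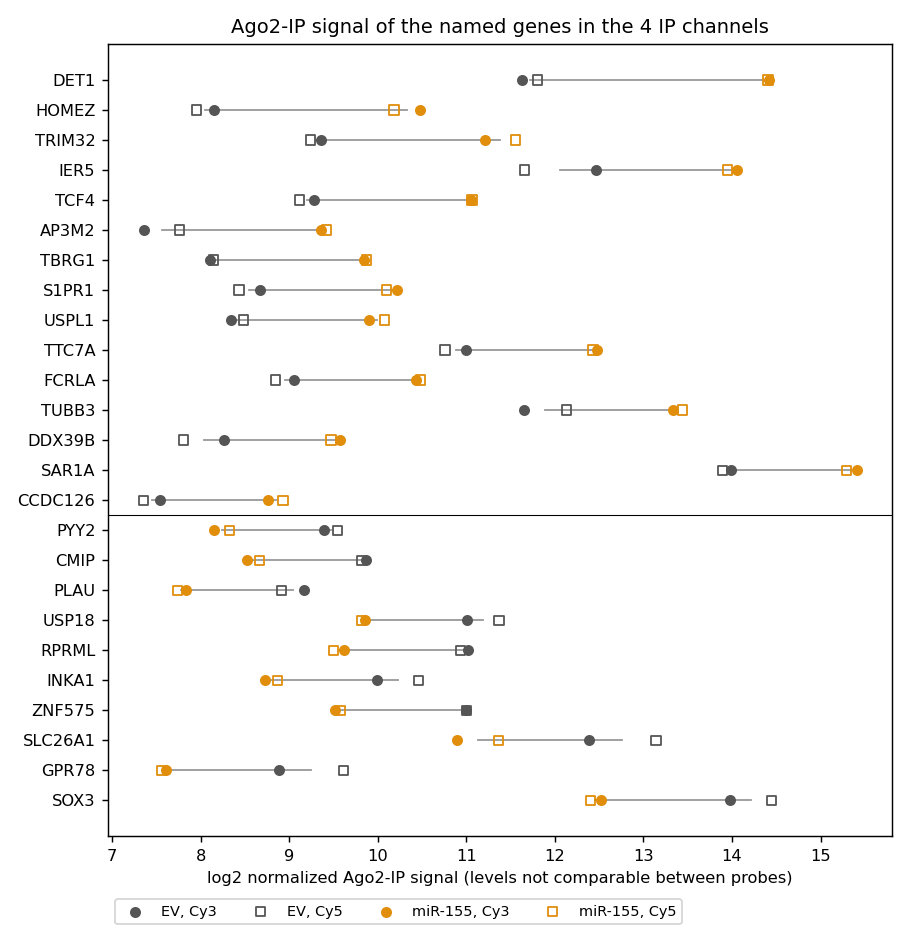
Log2 normalized Ago2-IP signal (x axis) of the 15 genes with the largest rise, above the line, and the 10 with the largest fall, below it, in the 4 IP channels. Grey symbols are EV and orange symbols miR-155, circles Cy3 and squares Cy5, and a bar joins the vector means. The rule that chose the genes requires separate labellings of the vectors, the distance between the vectors is widest for DET1, and levels cannot be compared between rows.

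The plot of the signals in the 4 channels also shows the 10 genes with the largest fall, from 47 probes of 27 genes that met the mirror-image rule. They include secreted or membrane proteins (SLC26A1, GPR78, PLAU), transcription factors (SOX3, ZNF575) and the interferon-stimulated protease USP18. Their IP differences ranged from -1.75 to -1.23. In total RNA 8 of the 10 were at least 1.5-fold lower, and ZNF575 and PLAU were within 1.5-fold, PLAU on a dim total signal.

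SOX3, an HMG-box transcription factor best known from the developing brain, was at 13.97 and 14.45 in the EV IP and at 12.52 and 12.40 in the miR-155 IP. It was 3.37-fold lower (-1.75 ± 0.42), and its total RNA differed by -0.85. SLC26A1, a sulfate transporter, was at 12.38 and 13.14 and at 10.90 and 11.37 (-1.63 ± 0.21, total -1.12). GPR78, an orphan G protein-coupled receptor, was at 8.89 and 9.61 and at 7.61 and 7.55 (-1.67 ± 0.55, total -1.35), with the widest labelling spread of the 10. USP18, which removes the ubiquitin-like ISG15 from proteins, was at 11.01 and 11.37 and at 9.86 and 9.81 (-1.35 ± 0.29, total -1.06). RPRML, a relative of the cell cycle inhibitor reprimo, differed by -1.41 ± 0.02 in the IP and by as much, -1.45, in total RNA.

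ZNF575, a zinc finger protein, was at 11.00 in both labellings of the EV IP and at 9.52 and 9.58 in the miR-155 IP (-1.45 ± 0.04), beside -0.56 in total RNA. PLAU, the urokinase plasminogen activator, differed by -1.26 ± 0.12 in the IP and by -0.35 in total RNA. INKA1, an inhibitor of the kinase PAK4, differed by -1.43 (total -1.15), CMIP, the c-Maf-inducing protein, by -1.25 (total -0.97), and the PYY2 pseudogene by -1.23 (total -0.81). None of these 10 genes had a higher total signal in miR-155-ST486 cells.

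The contrast between the directions held over all called probes. Of the 164 probes with a higher IP signal, 110 (67.1%) were within 1.5-fold in total RNA, 51 (31.1%) were at least 1.5-fold higher and 3 at least 1.5-fold lower, and the median total difference was 0.26. Of the 139 probes with a lower IP signal, 60 (43.2%) were within 1.5-fold, 79 (56.8%) were at least 1.5-fold lower and 0 higher, and the median total difference was -0.66. For comparison, 91.1% of all probes were within 1.5-fold in total RNA, where 82 probes (0.567%) were at least 2-fold higher and 48 (0.332%) at least 2-fold lower. The IP difference exceeded the total difference by at least 1 log2 unit in 83 of the 164 higher probes, and was below it by as much in 6 of the 139 lower ones. Over all probes these numbers were 148 and 31. IP and total RNA of a vector share arrays and slide, and their differences correlated with r = 0.60 across the 14453 probes.

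**Figure D3:**
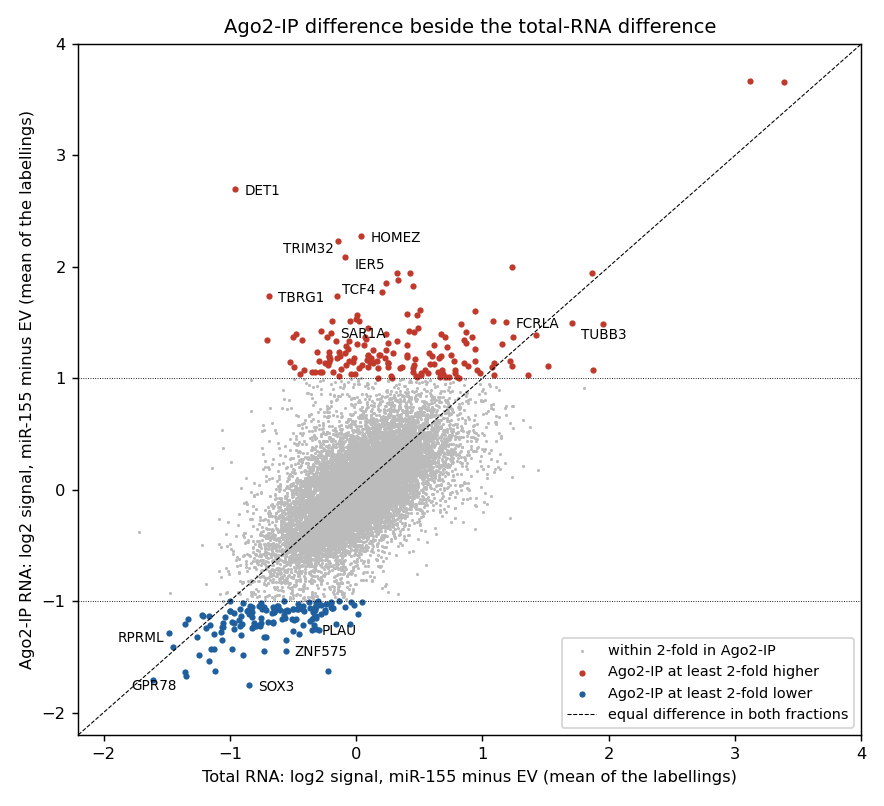
The log2 Ago2-IP difference (y axis) is plotted against the log2 total-RNA difference (x axis), both miR-155 minus EV and averaged over the labellings, for the 14453 probes. Red and blue points are at least 2-fold higher or lower in the IP, and points on the dashed line differ equally in both fractions. DET1, HOMEZ and TRIM32 lie far above the line near or left of a total difference of 0, while GPR78 and RPRML lie near the line.

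In the plot of IP against total differences, the 2 probes with the largest IP difference, 3.67 and 3.66, lie near the line of equal difference. They are assigned to the transcripts AW979273 and BC032913, have no symbol here, and differed by 3.12 and 3.39 in total RNA. Both were not well above background in either EV IP labelling, so only a bound can be given. For the EV level, the lowest signal that still counted as well above background was taken in each channel, or the probe's own signal where that was higher. By this, AW979273 was at least 1.64-fold and BC032913 at least 1.72-fold higher in the IP. In the same way CD46, a complement regulator, was at least 1.83-fold higher (means of the labellings 1.39 apart on the log2 scale, total 1.43), C7orf25 at least 1.65-fold and BMPR2, a receptor for bone morphogenetic proteins, at least 1.28-fold. The reverse case, well above background in both EV and in 0 miR-155 IP labellings, was FOXC1, a forkhead transcription factor, which was at least 1.88-fold lower. These bounds are approximate, since a probe above the lowest counted signal can still fail to be well above background. C7orf25 did so in the EV IP in Cy3 (5.62, against 5.52).

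Genes with several probes show how far the difference belongs to a transcript as a whole. Of 1960 genes with at least 2 probes, 47 had a probe that was at least 2-fold higher in the IP, and in 11 of these every probe was. Besides HOMEZ, TRIM32, AP3M2, USPL1 and SAR1A, they were DHX9, an RNA helicase (1.35 and 1.29), TBC1D14, a regulator of autophagy (1.37 and 1.03), GALT of galactose metabolism (1.16 and 1.14), CREB5 (1.11 and 1.07), ANXA2 and RPL17. For HOMEZ, TRIM32, AP3M2 and CREB5, 1 of the 2 probes was well above background in only 1 of the 2 EV IP labellings. All 3 RPL17 probes were higher, by 1.23, 1.18 and 1.18. ANXA2 and RPL17 have near-identical copies in the genome that the probes may also detect, so these values are uncertain. Of 12 genes with a lower probe, every probe was lower in GCC2, a golgin (-1.31 and -1.18), RGCC, a regulator of the cell cycle (-1.23 and -1.14), and USP18 (-1.35 and -1.30). The GCC2 probe at -1.31 was well above background in 1 of the 2 miR-155 IP labellings.

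In 20 genes a probe at least 2-fold higher stood beside one under 1.5-fold. Among the named genes these were TBRG1 (1.74 and -0.09) and TUBB3 (1.5 and 0.49). PSIP1, a chromatin-bound transcription coactivator, differed by 1.34 on the probe assigned to NM_021144 and by 0.25 on the one assigned to NM_033222. The study places the predicted miR-155 sites of PSIP1 in the first of these transcripts. MAX, the dimerization partner of MYC, gave 1.37, 0.66 and 0.13 on 3 probes, each assigned to another RefSeq transcript. Of the 15 genes with the largest rise, 9 had a second probe, which was also at least 2-fold higher in 5. For HOMEZ, TRIM32 and AP3M2 this second probe was well above background in 1 of the 2 EV IP labellings, so its difference is less certain. CCDC126 (0.81) and DDX39B (0.91) were below 2-fold on the second probe. Of the 10 with the largest fall, 3 had a second probe, which was at least 2-fold lower for USP18, at -0.95 for SLC26A1 and at -0.11 for CMIP.

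**Figure D4:**
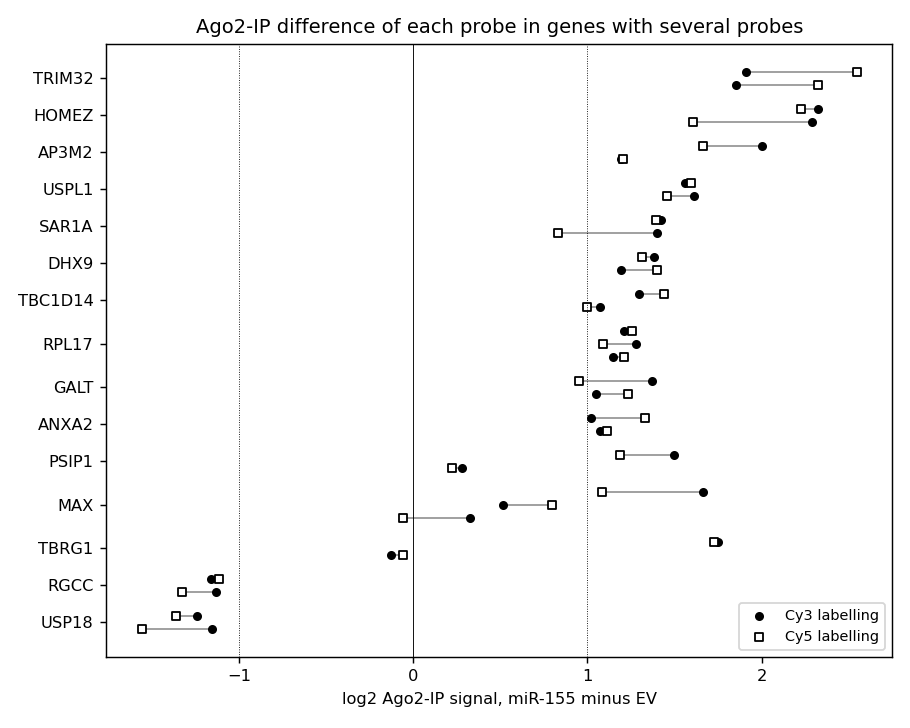
Log2 Ago2-IP difference (x axis, miR-155 minus EV) of each probe of 15 genes with several probes, with 1 row per probe, filled circles for the Cy3 and open squares for the Cy5 labelling. The upper genes, from TRIM32 to ANXA2, were at least 2-fold higher on every probe, PSIP1, MAX and TBRG1 differed between their probes, and RGCC and USP18 were at least 2-fold lower on both. For TRIM32, HOMEZ and AP3M2, 1 probe was well above background in only 1 of the 2 EV IP labellings.

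As the plot of single probes shows, the labellings of a probe were mostly closer to each other than the probes of PSIP1, MAX or TBRG1 were. The filter on dye differences keeps labellings close, and PSIP1, MAX and TBRG1 are shown because their probes differed. This comparison was thus set in advance and is no further evidence for a difference between probes. Lists of genes were then described with 1 probe a gene, the brightest in the IP, for which 84 of 7930 genes (1.06%) were at least 2-fold higher and 69 (0.87%) at least 2-fold lower, with a median difference of 0.03.

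Of 48 genes known as miR-155 targets from other work, mainly in immune cells, 32 were in the table, and 6 of these were at least 2-fold higher and 0 at least 2-fold lower. The median IP difference was 0.49, with 0.44 in Cy3 and 0.42 in Cy5, and the median total difference was -0.07. The 6 were TRIM32, TCF4, PICALM, TAB2, FOXO3 and JARID2. All of them but FOXO3 are also in the study's own target table, given below, so the 2 lists share these genes. PICALM, a clathrin assembly protein, was at 7.21 and 6.72 in the EV IP and at 8.29 and 8.11 in the miR-155 IP (1.24, total -0.14). TAB2, an adaptor of the kinase TAK1 in NF-kappaB signalling, was at 12.96 and 13.13 and at 14.33 and 14.03 (1.14, total -0.25). TAB2 was well above background in all 4 IP channels, whereas PICALM was in 1 of the 2 EV labellings, so that its difference is less certain.

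JARID2, a cofactor of Polycomb repressive complex 2, was at 10.31 and 10.64 in the EV IP and at 11.53 and 11.63 in the miR-155 IP (1.1, total -0.49). FOXO3, a forkhead transcription factor, was at 6.56 and 5.66 and at 7.37 and 7.12 (1.14, total 0.25), a dim probe that was well above background in 3 of the 4 IP channels. WEE1, the kinase that holds back mitotic entry, came close to the limit with 0.99. Among the targets most often studied in lymphocytes, BACH1 differed by 0.58 in the IP and -0.74 in total RNA, INPP5D (SHIP1), a phosphatase of B-cell receptor signalling, by 0.46 and -0.03, and SOCS1, an inhibitor of cytokine signalling, by 0.11 and 0.06. PKN2, at -0.93, was the lowest of the 32. Known targets were thus spread from -0.93 to 2.09, and 25 of the 32 (78.1%) were above 0, against 53.5% of all genes.

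The study's own target table, whose genes were chosen on these samples by the ratio of IP to total RNA and are not independent evidence, had 49 genes in the deposited table. Of these 22 were at least 2-fold higher in the IP (4 of them, PANK1, PICALM, CENPI and ERI2, well above background in 3 of the 4 IP channels), 0 were lower, 48 were above 0, and the median was 0.98 with -0.14 in total RNA. Of the 27 others, several had a lower total signal with an IP difference under 2-fold, such as KLHL5 (0.54 in the IP, -1.06 in total RNA) and PSKH1 (0.98 and -0.83). Some of the 27 were at least 2-fold higher on a dimmer probe. Besides PSIP1 and TBRG1, these were BRWD1 (1.52), CCDC126 (1.40), MAX (1.37), ARRDC2 (1.15) and LIN9 (1.14). For BRWD1 and LIN9 that probe was well above background in 1 of the 2 EV IP labellings. Of the 6 genes that the study followed up, DET1, HOMEZ, TRIM32 and JARID2 were at least 2-fold higher on the brightest probe, and PSIP1 and TBRG1 on their dimmer probe.

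**Figure D5:**
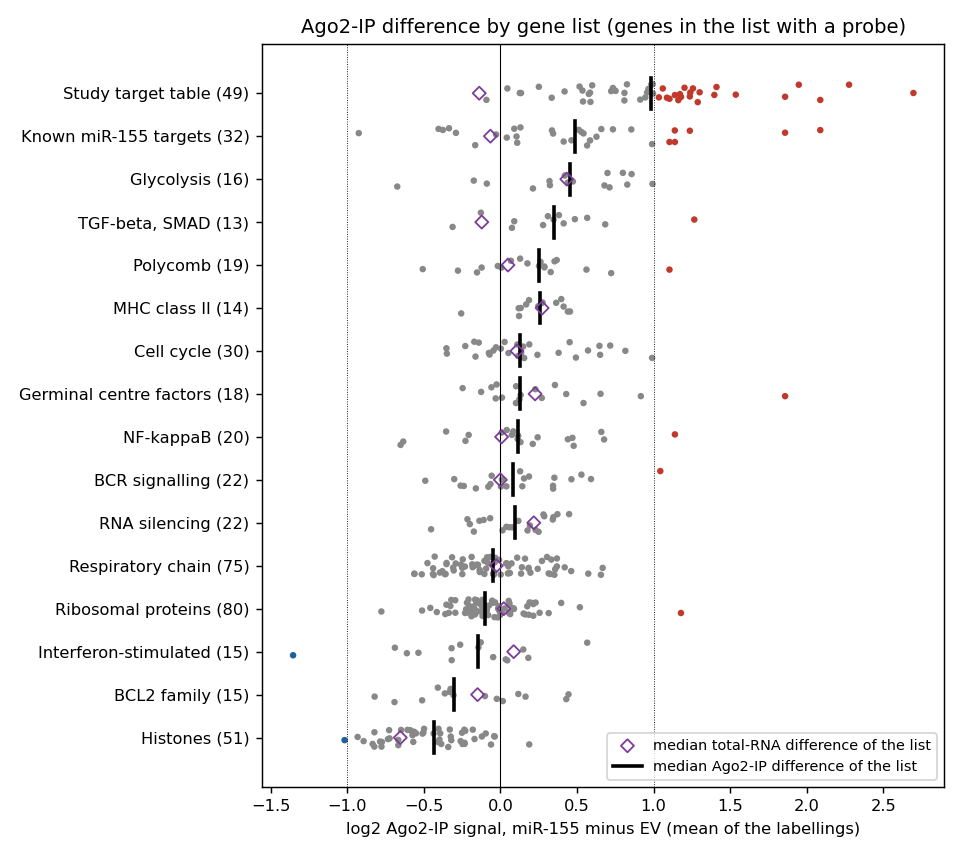
Each point is a gene of the list named on the y axis (number of genes in brackets), at its log2 Ago2-IP difference (x axis, miR-155 minus EV, mean of the labellings, brightest probe). Red and blue points are at least 2-fold higher or lower, black bars are list medians in the IP and open diamonds list medians in total RNA. For the known miR-155 targets the bar (0.49) stands apart from the diamond (-0.07), while for glycolysis (0.46 and 0.43) they coincide.

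Other lists held few members past 2-fold, as the plot by gene list shows. Over all genes 1.06% were at least 2-fold higher and 0.87% at least 2-fold lower. Counts of 0 or 1 in lists this short therefore say little about the lists themselves. Of 22 genes of the miRNA machinery 0 were 2-fold different, with a median of 0.10, and AGO2 itself differed by 0.06, DICER1 by 0.28 and the GW182 proteins TNRC6A and TNRC6B by 0.01 and 0.08. Of 19 Polycomb genes JARID2 was higher, followed by PHC2 (0.72, total -0.55). Of 20 NF-kappaB genes TAB2 was higher, with MYD88, the adaptor of Toll-like receptors, at 0.66. Of 13 TGF-beta and SMAD genes 11 were above 0 in both labellings (median 0.35, total -0.12), against 37.7% of all genes. The median fell to 0.04 without any filter. No member was shown to be 2-fold different, since for BMPR2, with a measured 1.27, the bound is the 1.28-fold given above. SMAD5, a known target, differed by 0.41 in the IP and -0.47 in total RNA.

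Of 22 genes of B-cell receptor signalling BTK, the tyrosine kinase, was higher (1.04, total 0.52) and the median was 0.08. Of 18 germinal centre and B-cell transcription factors TCF4 was higher, and BCL11A differed by 0.92 in the IP and by 1.8 in total RNA. Of 15 immediate early genes IER5 was higher, while EGR1 was at -0.85 (total -1.19). Of 30 cell cycle genes 0 were 2-fold different, with WEE1 highest and CDKN2A lowest (-0.35). Of 15 BCL2 family genes 0 were, with a median of -0.31 (-0.24 in Cy3 and -0.02 in Cy5 alone) and the BH3-only gene BBC3 lowest (-0.82), and of 16 genes of the p53 and ARF axis 0 were (median -0.07). The BCL2 and p53 medians turned above 0 when channels were centred on all probes of the array.

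Of 16 glycolysis genes 0 were 2-fold different, and 13 were above 0 in both labellings, against 37.7% of all genes. The median was 0.46 in the IP and 0.43 in total RNA, with PFKM (0.99, total 0.87) and HK2 (0.86, total 0.98) highest and ALDOA lowest (-0.67, total -0.52). Among the lists with more than 1 gene in the table, histone genes had the lowest median, -0.44 over 51 genes, beside -0.65 in total RNA. Of these 43 were below 0 in both labellings, against 31.1% of all genes, and H3C10 was at least 2-fold lower (-1.02, total -0.76). Many histone genes are near copies of each other, so their probes may share signal. The 14 genes of MHC class II presentation had a median of 0.26 in the IP and 0.27 in total RNA, with 0 past 2-fold and RFXANK lowest (-0.26). In these 3 lists the IP and total medians had the same sign.

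Of 15 interferon-stimulated genes USP18 was lower and the median was -0.14, which turned above 0 with channels centred on all probes of the array. Of 80 ribosomal protein genes RPL17 was higher, with a median of -0.10, and of 75 respiratory chain genes 0 were 2-fold different (median -0.05). These medians also changed sign with that centring. Of 214 ZNF genes 1 was higher and 1 lower (median -0.01), and of 17 regulators that bind 3′UTRs 0 were, with ZFP36, which binds AU-rich elements, highest at 0.96 (total -0.40) and DND1 lowest (-0.67). Of the 8 B-cell markers with deposited values 0 were 2-fold different, and CD79A was lowest (-0.30).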

How the data were processed

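Intensity values of 4 Agilent 2-colour arrays were deposited by the authors, who extracted them with Feature Extraction 10.5.1.1, background-subtracted and dye-normalized per the file headers. The authors' deposited log2 values, the main data here, were made by quantile normalization over the 8 channels in GeneSpring, and probes not detected in most channels or over 2-fold apart between the labellings of a sample were removed, so the labelling spread is bounded. Of these values 99.96% lay within 0.05 of values remade from the intensities. Quantile normalization sets every channel to one distribution and gives relative amounts only.

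IP differences were taken within each dye and averaged, and called at 2-fold or more. With n = 1 per vector there is no test and no p-value, and precision is limited by the few arrays. Named were the 15 largest rises and 10 largest falls among probes 2-fold different in each labelling and well above background in all 4 IP channels (1 probe a gene), up to 5 bounds a direction, the 6 genes the study selected, and list members past 2-fold, up to 4 a list, with the lowest where 0 were. CD33, AW979273, BC032913 and genes shown for their probes or roles were named after their values were seen. Members and lists were chosen with earlier results of these data known. Symbols came from RefSeq through the probes' accessions. limma 3.58.1 in R 4.3.3 (normexp only) and Python 3.11.15 with pandas 2.3.3, numpy 2.4.6 and matplotlib 3.10.9 served for the calculations, which were tested on simulated data. Alternatives were each labelling alone, other normalizations and backgrounds, filters and fold limits, and 1 centring chosen after seeing the data. A gene of the marker lists is not reported here.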

Additional observations from a re-analysis of the deposited data

Results flagged for a closer look

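The probe of MIR155HG, the host gene from whose transcript miR-155 is cut, lies outside the deposited table and was read from the channel intensities. It was flagged because its signal exceeded that of the empty vector control in data that no comparison above uses. In total RNA it was at 3.51 and 4.26 in EV-ST486 and at 6.92 and 6.74 in miR-155-ST486 cells on the log2 scale, a difference of 2.95. It was well above background in 0 of 2 EV and 2 of 2 miR-155 labellings, so the difference is given as an approximate bound, at least 2.78-fold. In the IP it was at 3.63 and 3.71 in EV-ST486 and at 5.64 and 6.41 in miR-155-ST486 cells, well above background in 1 of the 2 miR-155 labellings. The probe does not measure mature miR-155, and whether it lies in the inserted stretch is not given in the sources used here.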

How the results depend on the processing

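With n = 1 RNA per vector and 2 slides, every value here describes these arrays, and the labelling spread leaves out cultures, slides and immunoprecipitations. No paired analysis was possible because each vector has 1 RNA sample, no result comes from a test and the labels carry no replicate numbers. Seed sites in 3′UTRs were not counted because transcript sequences were not used here. With the Cy3 or the Cy5 labellings alone, between 190 and 317 probes were at least 2-fold higher and between 213 and 261 lower, and the median IP difference of the known miR-155 targets was 0.44 and 0.42. With channels centred on the median of all probes, 569 probes were higher and 30 lower (299 and 13 in each labelling), and the medians of the known targets, glycolysis and histones were 0.79, 0.73 and -0.18. With the centring on the deposited probes added later, the known targets were at 0.44. With normexp background correction, 31 were higher and 14 lower (14 and 5 in each labelling), with medians of 0.15 for the known targets and -0.23 for histones, and with high local backgrounds replaced 78 and 45 (29 and 12), with 0.28 for the known targets. Of the probes called here, 18 higher and 6 lower ones were shared with the normexp calls, and 49 and 25 with high local backgrounds replaced. Among probes well above background in all 4 IP channels 100 were higher, with 0.44 for the known targets. Without any filter 1278 were higher and 1217 lower (321 and 187), with 0.51, and without the filter on dye differences 541 and 333 (161 higher in each labelling), with 0.53. At 1.5-fold 903 were higher and 830 lower (473 and 400), and at 3-fold 18 and 6 (15 and 0). The named genes with the largest rise or fall kept their direction in all these settings, and DET1, IER5, SAR1A and SOX3 were at least 2-fold different under every normalization, background and filter and in each labelling. With normexp 4 of the 29 named probes past 2-fold remained so, and 17 with high local backgrounds replaced. With normexp the HOMEZ probes were at 0.58 and 0.34. The causes of these shifts were not tested. Well above background in all 4 IP channels were 100 of the 164 higher and 99 of the 139 lower probes.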
